A study of Mus musculus with 8 samples.

Results

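The 39 genes described here are 20 cytosolic aminoacyl-tRNA synthetases, 16 mitochondrial ones, whose symbols end in 2, and the 3 scaffold proteins of the multisynthetase complex, Aimp1, Aimp2 and Eef1e1. They were chosen by symbol among the 35275 genes of the count table, with earlier results of these data known, and all 39 were found and passed the filter on low counts. Their mRNA was followed in the liver of 8 male C57BL/6 mice aged 9 weeks, all fasted for 24 h from 3 pm, with 1 RNA-seq library per mouse. In 4 of them (Pcx L-/-) the Albumin-Cre transgene had removed a floxed exon of Pcx, the gene of pyruvate carboxylase, from hepatocytes, while the other cells of the liver kept it. The other 4 were littermates with the floxed alleles and no deletion (Pcx f/f), called WT in the sample labels and controls here. The comparison asks how these transcripts differ between fasted livers with and without hepatocyte pyruvate carboxylase, and whether cytosolic and mitochondrial enzymes differ alike.

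Aminoacyl-tRNA synthetases join amino acids to the tRNAs that carry them, as a rule one enzyme for one amino acid, and so supply the ribosome with its building blocks. The cytosolic enzymes serve the translation of nuclear genes, while the mitochondrial enzymes, also encoded in the nucleus, are imported to charge the tRNAs used for the few proteins encoded by mitochondrial DNA. Gars and Kars make both forms, and several cytosolic enzymes sit with the scaffold proteins in one large complex. Many of the cytosolic genes are known targets of Atf4, the transcription factor of the amino acid and mitochondrial stress responses.

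Libraries held 12016242 (control 4) to 20023108 reads on genes. Pcx itself lay at 556 to 758 normalized counts in the Pcx L-/- mice and 14371 to 22059 in controls (log2 fold change -4.80, SE 0.19). A normalized count is the number of reads scaled by edgeR's TMM factor to a common library size. All 6 hepatocyte markers were high in every library, and their summed level ran from 875852 to 1341456 in Pcx L-/- and from 1532592 to 1897073 in control livers. Alb made up most of that sum, with 690172 to 1019219 in Pcx L-/- and 1147426 to 1419707 in control livers. Of the 13168 genes tested by edgeR's quasi-likelihood test, 14.1% were called higher and 13.5% lower in Pcx L-/- liver, 27.6% in all, where called means a Benjamini-Hochberg adjusted p under 0.05. The median log2 fold change over all genes tested was -0.01. With libraries scaled by their total alone it became 0.28, and 3915 genes were called higher and 870 lower in place of 1855 and 1777, so the changes below are relative to that median. All 6 hepatocyte markers had negative log2 fold changes, with a median of -0.57, or -0.30 with libraries scaled by their total alone. Of the 6, Apoa1 was called lower (-1.04, adjusted p = 0.004), and 2 were with the total alone.

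The cytosolic synthetases were higher in Pcx L-/- liver almost throughout. With libraries scaled by their total alone, 8 of the 16 mitochondrial enzymes were called higher and 0 lower. That scaling called 3915 of all 13168 genes tested higher and 870 lower. With the TMM scaling, used below unless stated, most mitochondrial enzymes were not called, and 4 were higher and 2 lower. Of the 20 cytosolic enzymes 17 were called higher and 0 lower, against the 14.1% of all genes called higher, and their median log2 fold change was 0.52, a 1.44-fold difference, with a range of 0.22 to 1.13. Of the 16 mitochondrial enzymes 4 were called higher and 2 lower, against 14.1% and 13.5% of all genes, with a median of 0.18 and a range of -0.35 to 0.75. All 3 scaffold genes were called higher, with a median of 0.88. In 16 of the 20 cytosolic genes the lowest Pcx L-/- mouse exceeded the highest control, against 15.1% of all genes, and the same held for 5 of the 16 mitochondrial genes. In 2 mitochondrial genes the genotypes were separate in the other direction, against 12.5% of all genes. In whole liver, fewer cells of a type and less RNA per cell cannot be told apart.

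**Figure D1:**
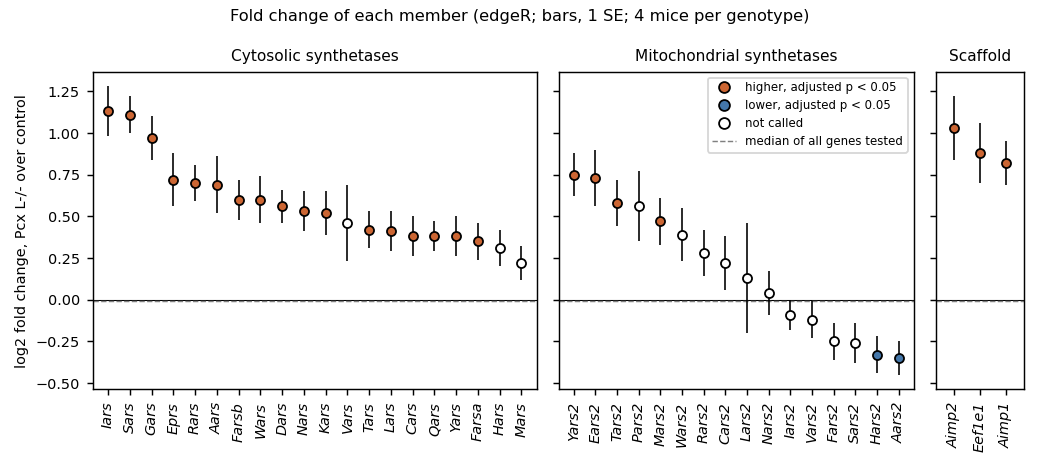
The log2 fold change of each of the 39 members is plotted on the y axis with 1 SE (edgeR, 4 mice per genotype), by group and in descending order. All 20 cytosolic points and the 3 scaffold points lie above 0, while the mitochondrial points run from 0.75 for Yars2 to -0.35 for Aars2 and 10 of 16 are open, that is, not called.

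The promoters of these genes were searched for a pair of short motifs, because the cytosolic members were higher almost throughout. TGATGNAA is the core of the C/EBP-ATF response element bound by Atf4 and its partners, and CACGTG is the E-box. RefSeq promoter windows of GRCm38.p6 (250 bases before and 50 from each transcription start) were at hand for 30 of the 39 members. On either strand, TGATGNAA was found in 5 of the 13 cytosolic genes with a window (38.5%), in 0 of 14 mitochondrial genes and in 0 of 3 scaffold genes, and in 4.51% of all 27025 genes. CACGTG was found in 4 of 13 cytosolic genes (30.8%), namely Farsb, Aars, Iars and Tars, in 1 of 14 mitochondrial genes, Ears2, and in 8.09% of all genes. No match of one motif shared bases with the other in these windows. The 5 genes with TGATGNAA had a median log2 fold change of 0.69, and the 8 cytosolic genes with a window and no match had 0.54, with Sars, at 1.11, among them. A match describes the letters only and was not tested for binding.

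The matches are shown here in their surroundings, with the motif in capitals and the strand of the gene given. In Gars, Iars, Tars and Aars the letters are those of the motif's opposite strand. Positions count from 1 at the first transcribed base, and the base before it is -1. The Gars site begins at -30 and that of Tars at -15, while Yars has its site at 4 and Iars at 8, just inside the transcript. Aars holds 2 sites, at -112 and at 10.
Gars, chr6:55037941-55038000, plus strand: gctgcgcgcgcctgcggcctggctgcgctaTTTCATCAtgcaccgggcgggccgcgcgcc
Iars, chr13:49682127-49682154, plus strand: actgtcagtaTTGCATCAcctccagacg
Tars, chr15:11399659-11399703, minus strand: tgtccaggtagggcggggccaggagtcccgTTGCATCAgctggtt
Yars, chr4:129189896-129189923, plus strand: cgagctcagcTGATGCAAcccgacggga
Aars, upstream site, chr8:111033700-111033767, plus strand: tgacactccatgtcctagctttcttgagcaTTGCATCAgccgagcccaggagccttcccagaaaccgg
Aars, downstream site, chr8:111033841-111033868, plus strand: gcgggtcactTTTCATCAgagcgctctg

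Iars, Sars and Gars, the enzymes for isoleucine, serine and glycine, had the 3 highest fold changes among the cytosolic genes. Iars (chr13:49682100-49734267 of GRCm38, plus strand) was at 783, 676, 899 and 925 normalized counts in controls 1 to 4 and at 1359, 1985, 1849 and 1990 in Pcx L-/- mice 1 to 4. Its log2 fold change was 1.13 (SE 0.15, adjusted p = 8.35e-04), 2.19-fold. The genotypes did not overlap, and Pcx L-/- 1 was the lowest of its genotype. Sars (chr3:108424865-108445209, minus strand) was at 851, 848, 917 and 937 in controls and at 1693, 2012, 1825 and 2163 in Pcx L-/- mice, a log2 fold change of 1.11 (SE 0.11, adjusted p = 2.06e-04). Its 4 controls stood close together, and it had the smallest adjusted p of the 39 members. Gars (chr6:55038007-55079500, plus strand) was at 764, 760, 774 and 954 in controls and at 1282, 1695, 1529 and 1855 in Pcx L-/- mice, a log2 fold change of 0.97 (SE 0.13, adjusted p = 9.99e-04). Control 4 was well above the other 3 controls for Gars, yet below every Pcx L-/- mouse.

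Eprs, Rars and Aars followed, with 1.61- to 1.65-fold differences. Eprs, a single protein that charges both glutamate and proline tRNAs, was at 2660, 2233, 2746 and 3783 in controls and at 4489, 4400, 5181 and 4778 in Pcx L-/- mice (log2 fold change 0.72, SE 0.16, adjusted p = 0.0076). Rars, the arginine enzyme, was at 505, 485, 462 and 560 against 699, 853, 827 and 888 (0.70, SE 0.11, adjusted p = 0.00161). Aars, the alanine enzyme, was at 3585, 2805, 3905 and 4952 against 5638, 6681, 5858 and 6387 (0.69, SE 0.17, adjusted p = 0.0114). The groups did not overlap in any of these 3 genes, and the controls of Eprs and Aars were spread more widely than those of Rars, with control 4 the highest in all 3.

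Farsb, the beta subunit of the phenylalanine enzyme, was at 482, 534, 478 and 509 in controls and 611, 795, 750 and 885 in Pcx L-/- mice (0.60, SE 0.12, adjusted p = 0.00511). Its partner Farsa, the alpha subunit, had a smaller log2 fold change of 0.35 (SE 0.11, adjusted p = 0.033), with controls at 304 to 371 and Pcx L-/- mice at 390 to 474. Both subunits had separate genotypes, but the call of Farsa was lost in 7 of the 17 alternative analyses and that of Farsb in 0. Wars, the tryptophan enzyme, was at 315, 271, 268 and 317 against 355, 539, 406 and 468 (0.60, SE 0.14, adjusted p = 0.0102). Wars is also known to be induced by interferon gamma, and the part of that cytokine in its level was not tested. Of 11 interferon-gamma-inducible genes, 0 were called higher and 2 lower, against 14.1% and 13.5% of all genes, with a median of -0.26. The highest of these was Tap1 (0.23, not called), and the lowest were Iigp1 (-1.45, called) and Irgm1 (-0.66, called). With libraries scaled by their total alone Tap1 was called higher (0.51, adjusted p = 0.0233), Irgm1 was at -0.40 and not called (adjusted p = 0.108), and the median of the list was -0.01.

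Dars, the aspartate enzyme, was at 1500, 1375, 1401 and 1429 in controls and at 1939, 2152, 2089 and 2215 in Pcx L-/- mice (0.56, SE 0.10, adjusted p = 0.00252). Nars, its asparagine counterpart, was at 1512, 1358, 1634 and 1841 against 2110, 2481, 2203 and 2341 (0.53, SE 0.12, adjusted p = 0.0085). Qars, the glutamine enzyme, was at 1063, 1085, 1021 and 1052 against 1273, 1429, 1353 and 1451 (0.38, SE 0.09, adjusted p = 0.011). The difference of Qars was modest, but its controls varied so little that the groups stood clear of each other. Of the 17 cytosolic genes called, 11 were called in all 17 alternative analyses, namely Aars, Dars, Eprs, Farsb, Gars, Iars, Nars, Qars, Rars, Sars and Wars.

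The other 6 called cytosolic genes lost their call in some analyses. They were Kars (lysine, 0.52), Tars (threonine, 0.42), Lars (leucine, 0.41), Cars (cysteine, 0.38), Yars (tyrosine, 0.38) and Farsa, with adjusted p between 0.0159 and 0.0357. Their log2 fold changes stayed positive in all 17 analyses, as did those of all 20 cytosolic genes. Kars was at 882, 944, 1050 and 1251 in controls and at 1225, 1498, 1534 and 1648 in Pcx L-/- mice (SE 0.13, adjusted p = 0.0159). Lars was at 620, 606, 666 and 740 against 720, 875, 872 and 1030 (SE 0.12, adjusted p = 0.0299). In both genes control 4 reached just above Pcx L-/- 1 and the other mice were separate. Tars was at 1141, 990, 1303 and 1067 in controls and at 1396, 1418, 1524 and 1681 in Pcx L-/- mice (SE 0.11, adjusted p = 0.0199). Yars was at 411, 413, 479 and 494 against 525, 663, 518 and 633 (SE 0.12, adjusted p = 0.0353). Cars, with 150 reads in its shallowest library, was at 218, 218, 293 and 255 against 307, 326, 327 and 320 (SE 0.12, adjusted p = 0.0357). The genotypes were separate in Tars, Yars and Cars, by narrow margins: 1303 to 1396, 494 to 518 and 293 to 307. Without Pcx L-/- 4, 11 cytosolic genes were called higher in place of 17, all 6 of these genes losing their call. Over all genes tested, 1156 were then called higher in place of 1855. Pcx L-/- 4 had the highest value of its genotype in 12 of the 20 cytosolic genes.

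Hars, Mars and Vars were not called. Hars, the histidine enzyme, was at 568, 563, 485 and 614 in controls and 627, 688, 661 and 781 in Pcx L-/- mice, and although the groups did not overlap its adjusted p was 0.0603 (log2 fold change 0.31, SE 0.11), ranging from 0.005 to 0.185 over the alternatives. Mars, the methionine enzyme that also serves initiation, was at 888, 937, 1019 and 1113 against 1096, 1213, 1181 and 1128 (0.22, SE 0.10, adjusted p = 0.127, range 0.00542 to 0.307). Vars, the valine enzyme, was at 904, 504, 878 and 1198 against 910, 1466, 1098 and 1315 (0.46, SE 0.23, adjusted p = 0.161, range 0.019 to 0.353). The controls of Vars were widely spread, with control 2 far below the other 3. With libraries scaled by their total alone, all 3 were called and the count of cytosolic genes called higher was 20 of 20. Of the 13168 genes tested, 3915 were then called higher in place of 1855, and the median of all genes was 0.28.

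Within the cytosolic set, groups by assembly, class or known regulation showed similar medians. The 8 enzymes of the multisynthetase complex had 7 called higher and a median of 0.54, and the 12 outside it had 10 and 0.49. Class I enzymes, whose catalytic core is a Rossmann fold, had 7 of 9 called and a median of 0.41. Class II enzymes, built around an antiparallel sheet, had 9 of 10 called and a median of 0.54, Eprs being left out because it holds both kinds. Of the 12 enzymes on a list of genes linked to Atf4, drawn up from general knowledge, 11 were called with a median of 0.56, and of the 8 off that list 6 were called with a median of 0.49. Log2 fold changes ran from 0.22 to 1.13 on the list and from 0.31 to 0.70 off it. Of all genes 14.1% were called higher, and these differences between subsets were not tested.

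The scaffold genes were among the most changed members. Aimp2 (chr5:143902704-143909847, minus strand), which holds the complex together, was at 63.7, 85.6, 83.8 and 83.2 in controls and at 124, 181, 136 and 204 in Pcx L-/- mice (log2 fold change 1.03, SE 0.19, adjusted p = 0.0039). Eef1e1, also known as p18, was at 107, 132, 135 and 112 against 149, 265, 243 and 242 (0.88, SE 0.18, adjusted p = 0.00614). Aimp1, whose secreted fragment is the cytokine EMAP II, was at 411, 441, 429 and 428 against 603, 808, 691 and 904 (0.82, SE 0.13, adjusted p = 0.00167). All 3 were clear of the controls in every Pcx L-/- mouse, Pcx L-/- 1 being the lowest of its genotype each time, and all 3 were called in all 17 alternatives. Aimp2 and Eef1e1 were among the members with few reads, with 49 and 66 in their shallowest libraries.

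**Figure D2:**
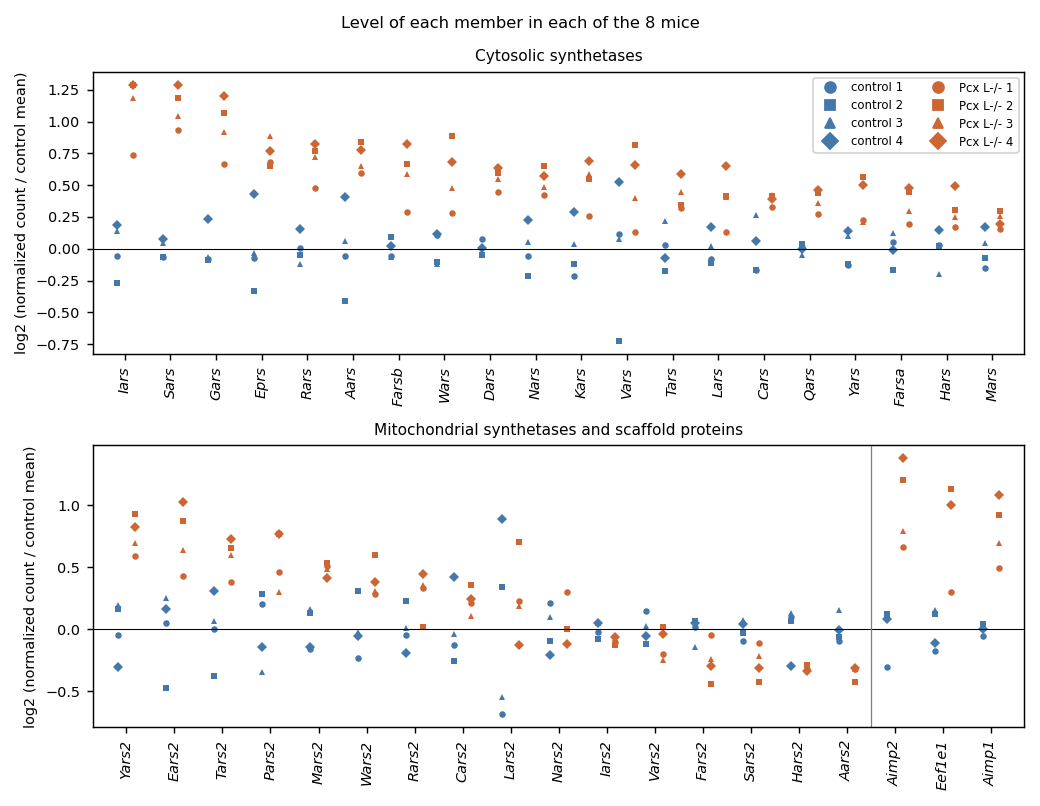
The y axis gives the log2 ratio of each mouse's normalized count to the control mean of that gene, on the log scale, for cytosolic genes (upper panel) and for mitochondrial and scaffold genes (lower panel, split by the grey line). Controls are blue and Pcx L-/- mice orange, with 1 symbol per replicate; the orange points lie above all blue ones in 16 of 20 cytosolic, 5 of 16 mitochondrial and 3 of 3 scaffold genes.

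Among the mitochondrial enzymes, Yars2, Ears2, Tars2 and Mars2 were called higher. Yars2, the mitochondrial tyrosine enzyme (chr16:16302965-16309640, plus strand), was at 245, 284, 290 and 205 in controls and 382, 484, 410 and 449 in Pcx L-/- mice, a log2 fold change of 0.75 (SE 0.13, adjusted p = 0.00292). Ears2 (chr7:122037213-122067263, minus strand), which charges glutamate in mitochondria, was at 223, 155, 256 and 241 against 289, 393, 335 and 437 (0.73, SE 0.17, adjusted p = 0.0109). Tars2, the mitochondrial threonine enzyme, was at 338, 260, 353 and 419 in controls and 440, 531, 511 and 559 in Pcx L-/- mice (0.58, SE 0.14, adjusted p = 0.013). These 3 genes were clear of the controls in all 4 Pcx L-/- mice and were called in all 17 alternatives. Mars2, the mitochondrial methionine enzyme, had few reads, 59 in its shallowest library, and was at 99.2, 121, 124 and 100 against 157, 160, 155 and 147 (0.47, SE 0.14, adjusted p = 0.024). It was called in 12 of the 17 alternatives.

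Aars2 and Hars2 were called lower with the TMM scaling and with DESeq2's size factors, but with libraries scaled by their total alone they stood at -0.06 and -0.05 and were not called. Aars2, the mitochondrial alanine enzyme (chr17:45506841-45520843, plus strand), was at 364, 371, 432 and 387 in controls and at 311, 289, 310 and 313 in Pcx L-/- mice (-0.35, SE 0.10, adjusted p = 0.0251, range 0.0123 to 0.761). Hars2, the mitochondrial histidine enzyme, was at 481, 470, 491 and 367 against 360, 369, 358 and 355 (-0.33, SE 0.11, adjusted p = 0.0474, range 0.00767 to 0.906). The groups were separate for Aars2, whereas for Hars2 control 4 fell among the Pcx L-/- mice. Aars2 was called in 7 and Hars2 in 3 of the 17 alternatives.

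The other 10 mitochondrial enzymes were not called. Pars2 (proline) had a log2 fold change of 0.56 with no overlap between genotypes, but 27 reads in its shallowest library and an adjusted p of 0.0666. Wars2 was at 0.39, Rars2 at 0.28, Cars2 at 0.22, Lars2 at 0.13 and Nars2 at 0.04. Below 0 lay Iars2 (-0.09), Vars2 (-0.12), Fars2 (-0.25) and Sars2 (-0.26), and these 4 became 0.20, 0.17, 0.03 and 0.02 when libraries were scaled by their total alone. Sars2 lay lower in all 4 Pcx L-/- mice than in any control (151 to 188 against 190 to 214), with an adjusted p of 0.127. Mitochondrial enzymes of class I had 3 of 9 called higher and 0 lower, with a median of 0.28. Those of class II had 1 of 7 higher and 2 lower, with a median of -0.25. Of all genes 14.1% were called higher and 13.5% lower. With libraries scaled by their total alone, the class II median turned to 0.03 with 2 higher and 0 lower, and that of class I was 0.56 with 6 higher and 0 lower, against 0.28 over all genes. With that scaling 3915 of the 13168 genes tested were called higher and 870 lower. The difference between the classes was not tested.

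Lars2, the mitochondrial leucine enzyme (chr9:123366927-123462666, plus strand), stood apart from all other members by its level. It was at 16242, 33137, 17892 and 48358 normalized counts in controls and at 30588, 42626, 29702 and 23923 in Pcx L-/- mice, so that it held 3.24 to 9.71 times the reads of the other 15 mitochondrial enzymes together. The genotypes overlapped fully (log2 fold change 0.13, SE 0.33, adjusted p = 0.799). Gm42418, a transcript known to collect ribosomal RNA reads and chosen here after its values were seen, was at 72366, 463110, 168802 and 305103 in controls and at 395818, 534654, 353266 and 319997 in Pcx L-/- mice. Controls 1 and 3 were the lowest libraries for both transcripts, and the part of such reads in the Lars2 count was not tested. Without Lars2 the median of the other 15 mitochondrial enzymes was 0.22.

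**Figure D3:**
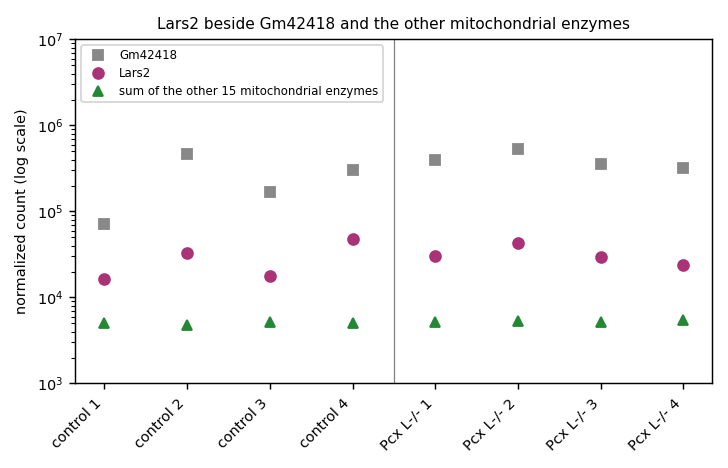
Normalized counts of Lars2, of Gm42418 and of the other 15 mitochondrial enzymes summed are plotted for each mouse on a logarithmic y axis, controls left and Pcx L-/- right of the grey line. Lars2 lies between 16242 and 48358 and is 3.24 to 9.71 times the sum of the other 15.

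Cytosolic and mitochondrial enzymes were then set against each other within each library, where the scaling of the library cancels. The mean log2 level of the 20 cytosolic genes minus that of the 16 mitochondrial genes, relative to the control mean, was 0.01, -0.16, 0.02 and 0.13 in controls 1 to 4. In Pcx L-/- mice 1 to 4 it was 0.22, 0.42, 0.42 and 0.50, with a mean of 0.39 ± 0.12 (SD, n = 4). The genotypes were separate, the gap being smallest between Pcx L-/- 1 and control 4. The difference was also 0.39 without Lars2, 0.34 without members whose exons overlap another counted gene, and 0.40 to 0.46 on the FPKM scale. The gap from control 4 to Pcx L-/- 1 was narrower without Lars2, at 0.19 to 0.23. Without the overlapping members it was also narrower, at 0.14 to 0.18. The cytosolic mean alone rose by 0.39, 0.66, 0.56 and 0.70 over the control mean in Pcx L-/- mice 1 to 4, and the mitochondrial mean by 0.16, 0.23, 0.14 and 0.20. On the TMM scale the mitochondrial mean of each Pcx L-/- mouse was thus also above the controls, which ran from -0.05 to 0.03.

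For 13 amino acids the cytosolic and the mitochondrial enzyme had matching symbols, as Sars and Sars2, and the ratio of one to the other was followed in each mouse. Ears2 and Pars2, whose cytosolic counterpart is Eprs, and Fars2, whose counterparts are Farsa and Farsb, were not paired. Their log2 fold changes were 0.73, 0.56 and -0.25, against 0.72 for Eprs, 0.35 for Farsa and 0.60 for Farsb. Among the 13 pairs the ratio moved toward the cytosolic enzyme in 10 and toward the mitochondrial enzyme in 3. It was above the controls in all 4 Pcx L-/- mice for serine (log2 ratio 1.37 higher), isoleucine (1.21), alanine (1.06) and histidine (0.62). For histidine the margin was narrow, 0.74 in control 4 to 0.80 in Pcx L-/- 1, and Hars itself was not called. How often ratios of other gene pairs separate the genotypes was not counted. Sars over Sars2 was at 2.16, 2.08, 2.09 and 2.16 in controls and at 3.17, 3.73, 3.38 and 3.72 in Pcx L-/- mice. Iars over Iars2 was at -0.86, -1.01, -0.73 and -0.69 against 0.01, 0.59, 0.43 and 0.52, so that the read count of the cytosolic gene went from below to above that of its mitochondrial counterpart. Aars over Aars2 was at 3.30, 2.92, 3.17 and 3.67 in controls and at 4.17, 4.52, 4.24 and 4.35 in Pcx L-/- mice. In this pair the cytosolic gene was called higher and the mitochondrial gene lower on the TMM scale, and the ratio does not depend on that scale. Tyrosine and methionine went the other way without overlap. Yars over Yars2 was at 0.74, 0.54, 0.72 and 1.26 against 0.46, 0.45, 0.34 and 0.49. Mars over Mars2 was at 3.15, 2.94, 3.03 and 3.46 against 2.80, 2.91, 2.92 and 2.93, a difference of -0.25. Its margin was very narrow, 2.94 in control 2 to 2.93 in Pcx L-/- 4. In the remaining 7 pairs the genotypes overlapped, the differences running from -0.17 for threonine to 0.62 for valine.

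**Figure D4:**
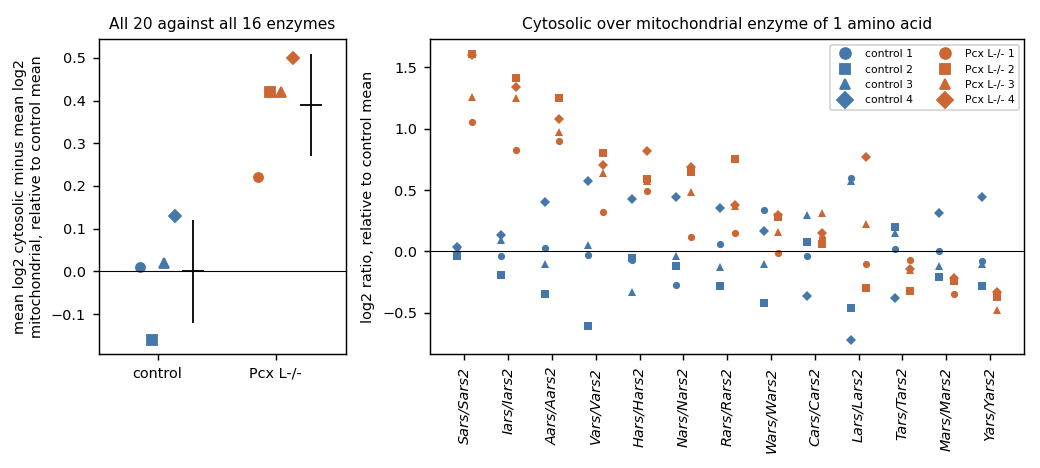
Left, mean log2 level of the 20 cytosolic minus the 16 mitochondrial enzymes in each mouse, relative to the control mean (black bars, mean and SD, n = 4); the Pcx L-/- mice lie at 0.22 to 0.50 and the controls at -0.16 to 0.13. Right, log2 ratio of the cytosolic over the mitochondrial enzyme of each of 13 amino acids by mouse, relative to the control mean. All Pcx L-/- mice lie above the controls in 4 pairs and below them in 2, and 7 pairs overlap. The margins are narrow for histidine, tyrosine and methionine.

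Pcx L-/- 1 and control 4 stood at the inner edge of their genotypes. On the TMM scale Pcx L-/- 1 was the lowest of the 4 Pcx L-/- mice in 18 of the 20 cytosolic genes, and control 4 was the highest control in 14 of 20. Among the 16 mitochondrial genes the same 2 mice were at these extremes in 4 and 3. Control 4 had the lowest TMM factor, 0.833 against 0.9213 to 0.9423 in the other controls, which raises its normalized counts. How often it was highest with libraries scaled by their total alone was not counted. Pcx L-/- 1 also had the highest red blood cell markers, whose 4 genes summed to 67724 normalized counts against 3935 to 16033 in controls, with no gene of the list called. It belonged, with controls 1 and 2, to the mice numbered in the 500s, and the other 5 mice were numbered in the 800s. Within the 500s Pcx L-/- 1 was above both controls in 20 of 20 cytosolic genes, with a median difference of 0.43, against 37.2% of all genes tested. Within the 800s all 3 Pcx L-/- mice were above both controls in 19 of 20, with a median of 0.44, against 29.3% of all genes. In the mitochondrial genes the same counts were 8 of 16 above and 6 below in the 500s, and 7 above and 4 below in the 800s, where 37.2% and 27.7% of all genes lay below. Without Pcx L-/- 1, 18 cytosolic genes were called higher, and without control 4, 19. Of all genes, 2232 and 1917 were then called higher, in place of 1855.

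Levels of different genes were compared per length, as the authors' FPKM. In control liver Lars2 stood first at 391 ± 184 (SD, n = 4), with the reservation above. Below it came Aars (35.1 ± 6.31), Dars (35.0 ± 2.30), Nars (32.0 ± 2.57) and Eprs (31.1 ± 5.27), whose ranges overlapped, so their order is not settled. The lowest cytosolic genes were Cars (4.07 ± 0.582), Wars (5.42 ± 0.418) and Farsa (5.46 ± 0.531). Among mitochondrial genes Iars2 (14.1 ± 0.615) and Fars2 (10.8 ± 0.848) followed Lars2, and Mars2 (0.527 ± 0.081) and Pars2 (0.905 ± 0.213) were the lowest of all 39. Of the 38 neighbouring pairs in this order, 33 had overlapping ranges. The median of the gene means was 14.1 FPKM for cytosolic and 5.29 for mitochondrial enzymes in controls, and 26.0 and 5.85 in Pcx L-/- liver. FPKM divide by the library total alone, without TMM factors, so log2 fold changes on this scale are shifted upward from those of normalized counts. Increases look larger (Aars, 35.1 to 69.8) and decreases smaller. Aars2 went from 6.19 to 5.94 FPKM, against 388 to 306 normalized counts.

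**Figure D5:**
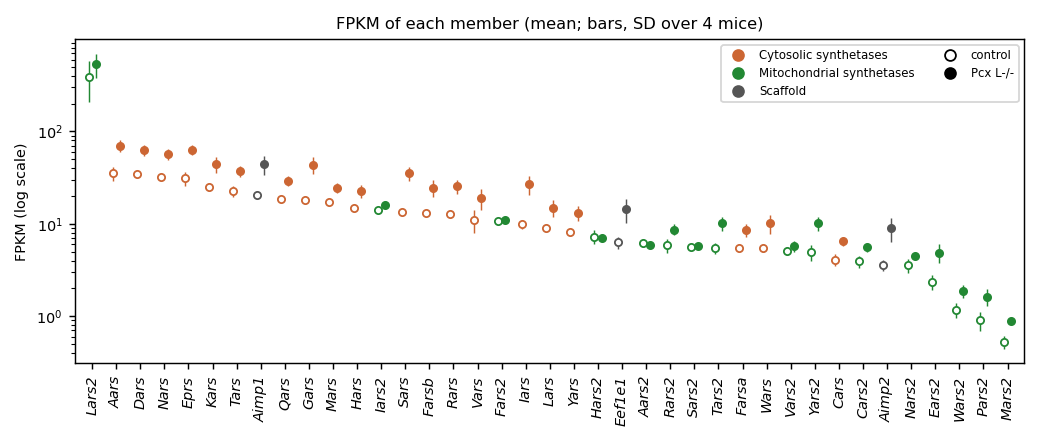
FPKM of each member in control (open) and Pcx L-/- liver (filled), as mean with SD bars over 4 mice on a logarithmic y axis, in descending order of the control mean. Cytosolic genes (orange) fill most of the upper ranks, from 35.1 for Aars downward, and the mitochondrial genes (green) run down to 0.527 for Mars2, apart from Lars2 at 391.

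Genes that act before and after the synthetases were described from lists drawn up with earlier results of these data known. Of 17 tested genes of tRNA charging and its editing, 7 were called higher and 1 lower, against 14.1% and 13.5% of all genes, with a median of 0.20. Ptrh2, a peptidyl-tRNA hydrolase, was at 197 to 251 normalized counts in controls and at 284 to 588 in Pcx L-/- mice (1.05, SE 0.21, adjusted p = 0.00511). The lowest were Tarsl2, a further threonine enzyme of the cytosol, at -0.45 (SE 0.12, adjusted p = 0.0201) and Sepsecs, which finishes selenocysteine on its tRNA, at -0.21 (adjusted p = 0.207), or -0.31 and called without Pcx L-/- 1 (adjusted p = 0.0404). The call of Tarsl2 was lost in 8 of the 17 alternatives, and with libraries scaled by their total alone its log2 fold change was -0.16 (adjusted p = 0.395, range over all alternatives 0.00744 to 0.506). Mitochondrial glutamine tRNA is first charged with glutamate by Ears2 and then amidated by the products of Gatb, Gatc and Qrsl1. Of these, chosen after their values were seen, Gatc was called higher (0.88, SE 0.15, adjusted p = 0.00258), at 527 to 887 against 367 to 421, while Gatb was at -0.08 (adjusted p = 0.55) and Qrsl1 at 0.38 (adjusted p = 0.14), and Qrsl1 was called higher with libraries scaled by their total alone. Xpot, the exporter of tRNA from the nucleus, also chosen after its values were seen, was at 1976 to 2079 in controls and 2741 to 3275 in Pcx L-/- mice (0.58, SE 0.10, adjusted p = 0.00285).

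RNA polymerase III, which transcribes the tRNAs, and its factors had 7 of 21 tested genes called higher and 0 lower, against 14.1% and 13.5% of all genes, with a median of 0.06. The subunit gene Polr3d was called higher (0.80, SE 0.15, adjusted p = 0.00423). Gtf3c1 (-0.36, adjusted p = 0.185) and Bdp1 (-0.23, adjusted p = 0.222) were the lowest and were not called, though without control 2 Gtf3c1 was at -0.52 and called (adjusted p = 0.0212). Of 23 tested genes of the amino acid stress response other than synthetases, 13 were called higher and 1 lower, against 14.1% and 13.5% of all genes, with a median of 0.89. Nupr1 (7.19, SE 0.64) and Psat1 (4.48, SE 0.31) were the highest, and Shmt2 (-0.57, SE 0.16, called) and Cth (-0.44, SE 0.26, not called) the lowest. Shmt2 lost its call in 9 of the 17 alternatives and was at -0.31 with libraries scaled by their total alone, while Cth was at -0.79 and called without Pcx L-/- 1. Atf4 itself, chosen after its values were seen, was at 1005, 1016, 1068 and 619 in controls and 1104, 2137, 1499 and 2125 in Pcx L-/- mice (0.89, SE 0.23, adjusted p = 0.0147), and without Pcx L-/- 4 its adjusted p was 0.0518. Control 4 was the lowest control for Atf4, and Pcx L-/- 1 the lowest Pcx L-/- mouse. How the Atf4 level of a mouse relates to its synthetase levels was not tested.

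Exons of 14 members overlap those of another gene in the count table, on the opposite strand in each case, and no source used here says whether counting used strand. These are 5 cytosolic, 7 mitochondrial and 2 scaffold genes. Aimp2 shares 487 of its 1654 exonic bases with Eif2ak1, which was not called (-0.13, adjusted p = 0.403). Hars and Hars2, which lie head to head, share 195 bases, and their fold changes were 0.31 and -0.33. Mars shares 68 bases with Ddit3, a stress gene with a log2 fold change of 2.48, and Fars2 shares 501 with Nrn1 (-0.54). Iars2 shares 2034 of its 8885 exonic bases with Rab3gap2 (0.08, not called). On the same strand, Exosc6 overlaps 1326 of the 9282 exonic bases of Aars in GENCODE M21 and matched no row here. Iars shares 767 of its 5273 words of 31 bases with Gm4849. Among members without such an overlap in the table, 14 of 15 cytosolic genes were called higher, and 3 of 9 mitochondrial genes higher and 1 lower. Of all genes 14.1% were called higher and 13.5% lower.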

How the data were processed

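Total RNA of 8 livers was sequenced by a company. The authors deposited 1 table of raw counts of reads by Ensembl gene and 1 of FPKM, aligned to mm10, which is GRCm38. The submitters' processing notes name STAR 2.5, HTSeq 0.6.1 and DESeq2. The deposited FPKM equal the count over 1 length per gene and the library total. No source used here gives the annotation release or the use of strand. Symbols came from GENCODE M21, which matched 34490 of 35275 identifiers.

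Groups came from the sample labels. Counts were tested with edgeR 4.0.16 (R 4.3.3): TMM factors, filterByExpr (minimum count 10, total 15), genotype as the only term, quasi-likelihood F test, Benjamini-Hochberg adjustment over 13168 genes and a threshold of 0.05. Standard errors are approximate. The biological coefficient of variation was 0.181 with 6 residual degrees of freedom. Within-library scores used log2(normalized count + 1). The steps were tested on simulated data. Totals of 12016242 to 20023108 reads limit the precision of members with few reads. The 17 alternatives covered scaling, filter, DESeq2 1.42.0, limma 3.58.1 on FPKM, the replicate number as a block, the mouse number series, and each mouse left out.

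Members and lists were chosen with earlier results of these data known. Values per mouse were given for the 16 called members with the smallest p and for others discussed, and for other lists the 2 highest and 2 lowest genes were named, except 3 that are not reported here. Values per mouse of other members, and the alternatives without Lars2, without members with exon overlap or with subgroups scaled by library totals, were chosen after seeing the data.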

Additional observations from a re-analysis of the deposited data

Results flagged for a closer look

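In 78 groups of 4 mice, 1 for each member and genotype, the gap between the extreme mouse and its neighbour was set against the whole range of the group, and chance puts about 1 in 20 such groups past the 95% critical value of Dixon's ratio. It was exceeded in 4 groups. Gars in controls had a ratio of 0.926, control 4 being at 954 normalized counts and the next at 774. Hars2 in controls had 0.832, with control 4 at 367 and the next at 470. Aimp2 in controls had 0.888, with control 1 at 63.7 and the next at 83.2. Aars2 in Pcx L-/- mice had 0.869, with Pcx L-/- 2 at 289 and the next at 310. In Gars and Aimp2 the extreme control was still below every Pcx L-/- mouse, and Hars2 alone of the 4 had overlapping genotypes.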

How the results depend on the processing

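Over 39 members and 17 alternatives, 551 of 663 fold changes kept their direction and their side of the threshold, 60 lost their call, 31 gained one and 21 changed sign. The medians were 0.82 for cytosolic and 0.48 for mitochondrial enzymes with library totals alone, 0.81 and 0.52 with limma on log2(FPKM + 0.1), and 0.77 and 0.36 with limma on log2(FPKM + 1), with or without the filter. In these 4 settings the mitochondrial enzymes called higher were 8, 8, 8 and 7, and those called lower 0 in each. Of all genes they called 3915, 3779, 3822 and 3189 higher and 870, 822, 823 and 637 lower. With library totals, limma at 0.1, limma at 1 and limma without the filter, in that order, Fars2 was at 0.03, 0.03, 0.03 and 0.03, Iars2 at 0.20, 0.19, 0.18 and 0.18, Sars2 at 0.02, 0.02, 0.01 and 0.01, and Vars2 at 0.17, 0.16, 0.14 and 0.14. Sepsecs was at 0.06 in all 4, and Bdp1 at 0.06, 0.04, 0.03 and 0.03. The median of all genes was 0.28 with library totals and 0.18 with limma on log2(FPKM + 1). Mitochondrial enzymes called lower were 1 with the mouse number series as a covariate, 0 with no filter on low counts, and 1 without members with exon overlap. Of all genes, 1762 were called lower with that covariate and 1629 with no filter.

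The replicate numbers do not pair the mice, since deviations of same-numbered mice correlated at 0.096, -0.127, -0.094 and -0.068. With the replicate block 14 cytosolic and 3 mitochondrial enzymes were called higher and 0 lower, and the mitochondrial median was 0.25. Of all genes, 1481 were called higher and 1494 lower with this block.

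With each mouse left out in turn, cytosolic enzymes called higher ranged from 11 to 19 and mitochondrial enzymes called lower from 0 to 2. The cytosolic median ranged from 0.47 to 0.61 and the mitochondrial from 0.12 (without Pcx L-/- 2) to 0.30 (without control 4), and all genes called higher from 1156 to 2232 and lower from 953 to 2370. Lars2 ranged from -0.07 to 0.50 and Nars2 from -0.05 to 0.11, changing sign. The cytosolic minus mitochondrial difference ranged from 0.34 to 0.45. The DESeq2 Wald test and DESeq2's size factors changed no member's call. Depth limits Pars2, Aimp2, Wars2, Mars2 and Eef1e1, which had 27, 49, 54, 59 and 66 reads in their shallowest libraries.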
